A study of Mus musculus with 2 samples.

Results

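The nuclear genes for subunits of the mitochondrial respiratory chain and the ATP synthase were described in lung epithelial cells of a normal and of a tumour-bearing mouse group. They were chosen by symbol, as every gene whose name begins with Nduf, Uqcr, Cox4 to Cox8 or Atp5, together with Sdha, Sdhb, Sdhc and Sdhd. This gave 89 of the 15113 genes listed in at least 1 of the 2 deposited tables, and genes absent from 1 of the tables were set to 0 there. The symbols took in more than subunits: 7 of the 89 are assembly factors of complex I, and 82 are subunits, their paralogues or associated proteins. In counts and sums below, these 82 are called subunits or subunit genes. Both groups were C57BL/6 mice of 6 to 8 weeks. The tumor group was given 1000000 luciferase-labelled LLC cells, a mouse Lewis lung carcinoma line, under the skin of the back, a model in which lung metastases arise spontaneously. The normal group was wild type mice without a tumour. From digested lung of both groups, cells negative for CD45, the common leukocyte antigen, and positive for Sftpc, the surfactant protein of alveolar type 2 (AT2) cells, were sorted and their polyadenylated RNA was sequenced. There was 1 library per group, so the values below have no replicate error and no test of the condition was possible. How many mice went into a library, and whether they were pooled, was not given in the sources used here.

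Mitochondria hold the respiratory chain as a set of protein complexes in their inner membrane. Complex I (NADH dehydrogenase) and complex II (succinate dehydrogenase) pass electrons to ubiquinone, complex III (the cytochrome bc1 complex) passes them to cytochrome c, and complex IV (cytochrome c oxidase) passes them to oxygen. The proton gradient made on the way drives complex V, the ATP synthase. Apart from complex II, each complex also holds at least 1 subunit encoded in mitochondrial DNA. AT2 cells, which make and secrete surfactant, are known as the alveolar epithelial cells rich in mitochondria.

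Values are in RPKM, reads scaled to the length of the gene and to the total of the library, so levels are per length. The libraries held an estimated 5335352 (normal) and 5387114 (tumor) reads, worked back from the steps of the RPKM values, and 19 of the 89 genes had under 100 reads in both. Intervals beside a ratio are exact 95% intervals from these reads and cover counting error only. The AT2 markers were present at high levels in both libraries (12 of 12 listed), with a summed level of 147713 RPKM in the normal and 99669 RPKM in the tumor library. Sftpc itself was at 94902 and 54968 RPKM. Of the 12 AT2 markers, 4 lay above 0 in log2 difference and 8 below. Markers of some other cell types were higher in the tumor library: the summed level of 9 fibroblast markers was 148 and 853 RPKM (1 and 0 of them at 0 RPKM), and that of 9 endothelial markers 25.8 and 118 RPKM (none at 0; 7 of 9 above 0 in log2 difference). The summed level of 10 alveolar type 1 markers was 1771 and 2904 RPKM, with none at 0. Those of 4 pan-leukocyte markers (2.58 and 1.34 RPKM; 1 at 0 in each library) and of 6 ciliated cell markers (512 and 390 RPKM; none at 0) were lower. Of the 6 ciliated cell markers, 2 lay above 0 in log2 difference and 4 below. The summed level of the macrophage markers was higher in the tumor library, with 4 of the 5 measured above 0 and 1 below. The part of these other cells in the results below was not tested, and in such sorted bulk samples fewer cells of a type and less RNA per cell cannot be told apart.

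Most subunit genes had a somewhat higher value in the tumor library, and few differed by much. The 82 subunit genes summed to 5738 RPKM in the normal and 7066 RPKM in the tumor library, a ratio of 1.23. Their share of all RPKM was 1.12% and 1.44%. With Sftpc, which was itself lower in the tumor library, left out of the total, the share was 1.38% and 1.62%. Differences are given as log2((tumor RPKM + 1)/(normal RPKM + 1)) for genes that reached 1 RPKM in either library. On that scale 63 of 81 subunit genes lay above 0, where 53.8% of all 12288 genes tested did. The median difference was 0.28 for the subunits and 0.06 for all genes tested. Of the 89 genes, 88 could be measured in this way, since Ndufa4l2 had 1 read in the normal and none in the tumor library. Among these 88, 5 were at least 2-fold higher in the tumor library, beside 9.38% of all genes tested. Another 3 were at least 2-fold lower, beside 6.53%. The remaining 80 differed by less than 2-fold. The counting interval of the ratio lay wholly above 1 for 44 of the 88, where it did for 33.1% of all genes, and wholly below 1 for 10, where it did for 26.4%. It lay wholly past 2-fold for 1 gene, Ndufb2, beside 6.27% of all genes above and 3.73% below.

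**Figure D1:**
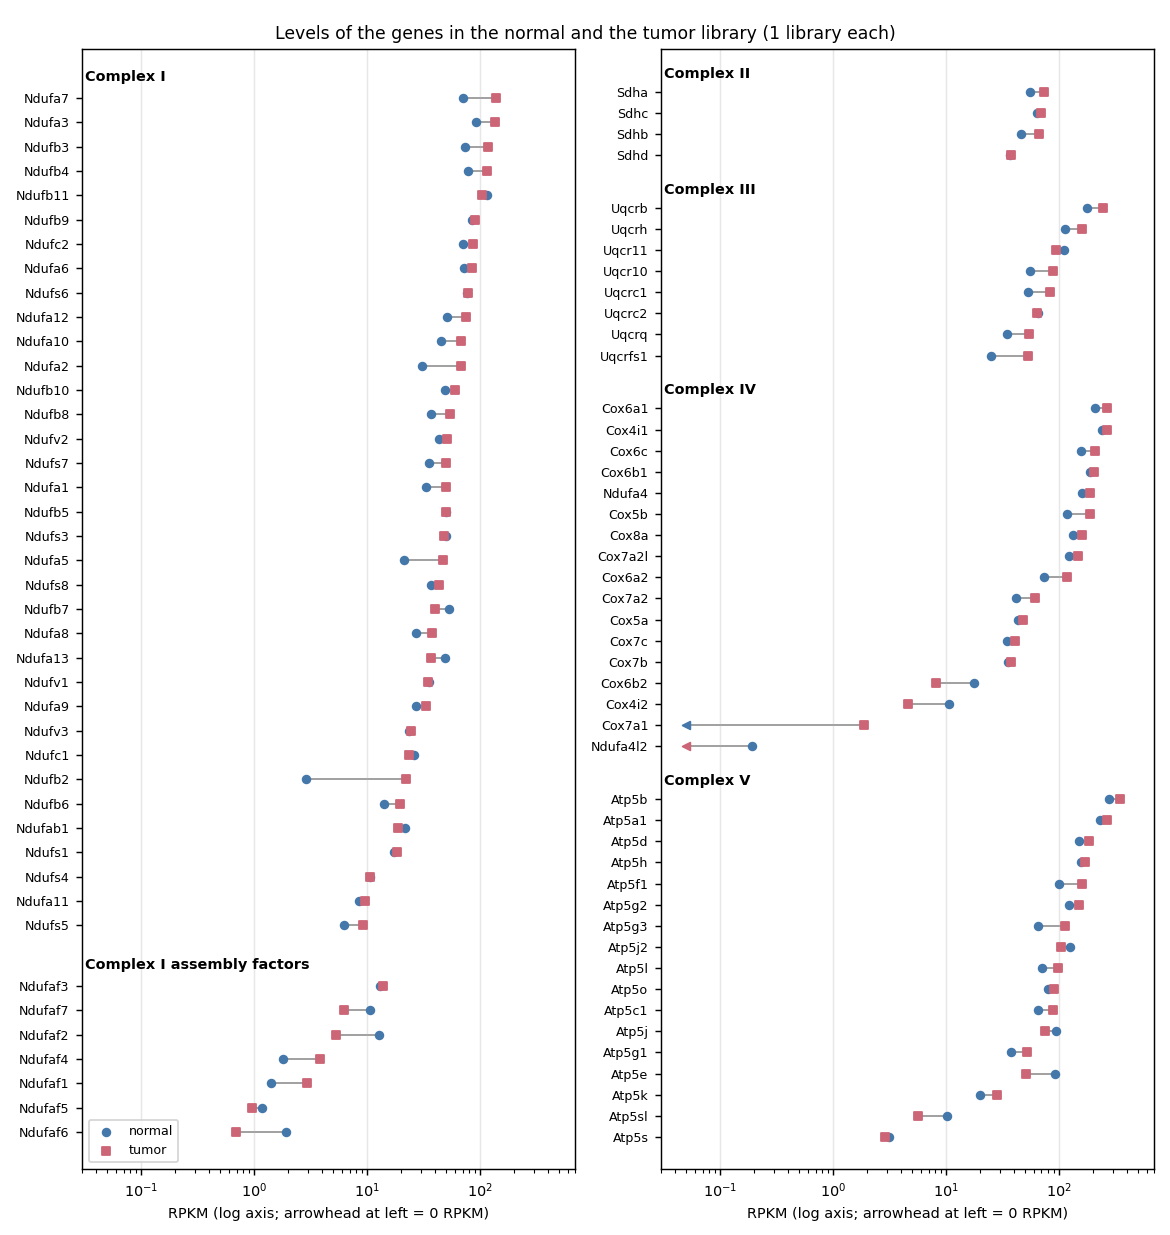
Level of 88 of the 89 genes in the normal library (blue circles) and the tumor library (red squares), in RPKM on a log axis, by complex. Each point is 1 library. Genes are sorted by their tumor level within each group, and Atp5b (278 and 344 RPKM) heads complex V. Most red squares sit a little to the right of the blue circles, and Ndufb2 (2.88 and 22.0 RPKM) has the longest line among genes read in both libraries.

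The order of the levels was nearly the same in both libraries, with a Spearman correlation of 0.94 over the 81 subunit genes, given as a description since both values of a gene share its length and sequence. The difference was also seen within ranges of level and length, but it was narrower at low levels and in longer genes. At 5 to 20 RPKM 9 subunits had a median of 0.08 and all 4753 genes one of 0.04. At 20 to 50 RPKM the medians were 0.23 for 25 subunits and 0.12 for all 2021 genes. Among genes at 50 to 100 RPKM the median difference was 0.42 for 24 subunits and 0.10 for all 669 genes. Between 100 and 400 RPKM it was 0.28 for 21 subunits and 0.11 for all 443 genes. Subunit genes are short, and among genes of 300 to 600 bases the median was 0.46 for 34 subunits and 0.10 for all 220 genes. Among genes of 1500 to 3000 bases it was 0.14 for 13 subunits and 0.05 for all 4412 genes.

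Complex I takes electrons from NADH and is the largest of the chain, with a set of core subunits that carry out catalysis and many accessory subunits around it. Its 36 genes summed to 1613 RPKM in the normal and 2038 RPKM in the tumor library. The median difference was 0.27, with 27 of 36 above 0 (53.8% of all genes tested were). Past 2-fold were 3 of the 36, all higher in the tumor library, beside 9.38% of all genes, so this share was near that of all genes. The 29 accessory subunits had a median of 0.30 and the 7 core subunits one of 0.22. All 3 genes past 2-fold were accessory subunits, which make up 29 of the 36 genes.

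Ndufb2, an accessory subunit of the membrane arm (chromosome 6, 39592565 to 39599843, GRCm38.p6), was at 2.88 RPKM in the normal library from 7 reads. In the tumor library it was at 22.0 RPKM from 54 reads. The ratio was 7.64 (3.47 to 19.9), the highest among members read in both libraries, on the fewest reads of any called subunit of complex I. Ndufb2 overlaps gene models on the same and on the opposite strand, and whether reads were counted by strand was not given in the sources used here. Ndufa2, an accessory subunit with a thioredoxin-like fold, was at 30.5 RPKM (86 reads) in the normal and 68.1 RPKM (194 reads) in the tumor library, 2.23-fold higher (1.72 to 2.91). Ndufa5, an accessory subunit of the matrix arm (chromosome 6, 24518662 to 24527690), was at 21.2 RPKM (62 reads) and 46.7 RPKM (138 reads), 2.20-fold higher (1.62 to 3.02). The lower bounds of the intervals of Ndufa2 and Ndufa5 lay under 2. Ndufa7, also of the matrix arm, stood just inside 2-fold at 70.4 and 137 RPKM (1.95; 1.62 to 2.34). By name, the 13 Ndufa genes of complex I had a median of 0.54 and the 10 Ndufb genes one of 0.37. The 8 Ndufs genes stood at 0.15 and the 3 Ndufv genes at 0.06.

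The most abundant genes of complex I were accessory subunits. Ndufa3 was at 92.9 and 135 RPKM (ratio 1.45; 1.19 to 1.77). Ndufb11, encoded on the X chromosome, was at 114 RPKM in the normal and 104 RPKM in the tumor library, with an interval that included 1 (0.801 to 1.03). At the lower end, Ndufa13, also known as Grim19, was at 49.3 and 37.1 RPKM, 1.33-fold lower in the tumor library (1.13 to 1.57). Ndufa13 overlaps the same-strand gene Yjefn3. Ndufb7 was at 53.1 and 40.0 RPKM, 1.33-fold lower (1.03 to 1.70). These were the 2 genes of complex I whose interval lay wholly below 1. Ndufab1, the mitochondrial acyl carrier protein, was at 21.8 and 18.8 RPKM, and Ndufc1 at 25.8 and 23.3 RPKM, both with intervals that included 1.

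The core subunits spread less than the accessory ones, with an SD of the difference over genes of 0.19 against 0.58. The accessory SD includes Ndufb2, with 7 reads in the normal library. The middle 50% of the genes lay between 0.02 and 0.24 for core and between 0.03 and 0.54 for accessory subunits. In the normal library core subunits had 142 to 636 reads and accessory ones 7 to 521. The part of counting error in the spread was not tested. Ndufs7, which holds the last iron-sulfur cluster before ubiquinone, was at 35.1 and 49.7 RPKM (1.42; 1.14 to 1.77). Ndufv2 was at 43.4 and 51.3 RPKM (1.18; 1.02 to 1.37). For Ndufs1, Ndufs3, Ndufs8 and the NADH-binding Ndufv1 the interval included 1. Under 1 of 4 other scalings of the libraries Ndufs1 turned from above to below 0.

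Complex II, which is also the succinate dehydrogenase of the citric acid cycle and has no subunit from mitochondrial DNA, had 4 genes, with a sum of 202 and 248 RPKM and a median difference of 0.26. The interval of the ratio lay above 1 for the 2 catalytic subunits and included 1 for the 2 membrane anchors, though those of both catalytic subunits overlapped that of Sdhc. Sdha, the flavoprotein that binds succinate, was at 55.3 RPKM (844 reads) in the normal and 74.0 RPKM (1139 reads) in the tumor library, a ratio of 1.34 (1.22 to 1.46). Sdhb, the iron-sulfur subunit, was at 46.6 and 67.2 RPKM, a ratio of 1.44 (1.23 to 1.69). The membrane anchors that form the ubiquinone site differed less than their counting error: Sdhc was at 63.9 and 68.8 RPKM (1.08; 0.938 to 1.24), and Sdhd at 36.7 and 37.6 RPKM (1.03; 0.859 to 1.22). Sdhd was below 0 under each of the 4 other scalings.

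**Figure D2:**
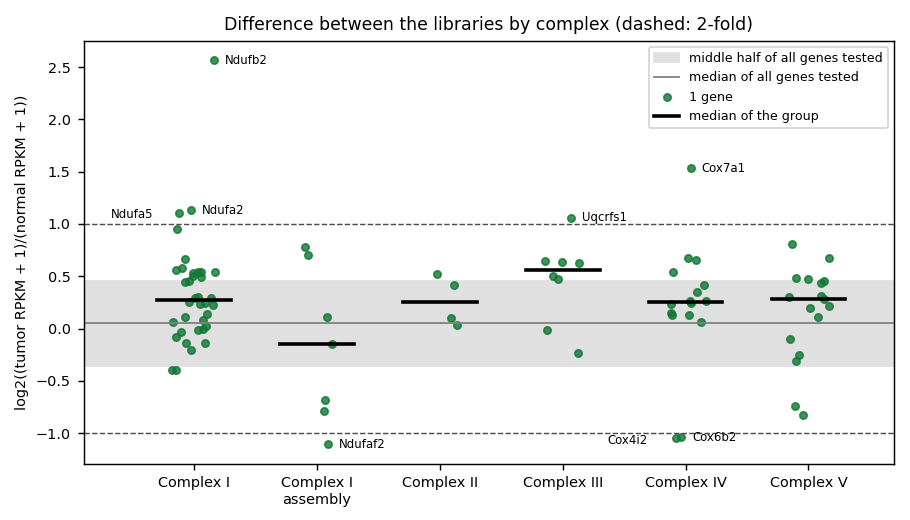
Difference between the libraries for each gene, as log2((tumor RPKM + 1)/(normal RPKM + 1)), by complex; each green point is 1 gene, the black bar is the median of the group, the grey line and band are the median and the middle 50% of all genes tested, and the dashed lines mark 2-fold. The medians of complexes I to V lie between 0.25 and 0.56, above the grey line at 0.06, and that of the complex I assembly factors lies below it at -0.15.

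Complex III had the highest median difference of the 5 complexes, at 0.56, with 6 of its 8 genes above 0 (53.8% of all genes tested). Of the 8, 1 was past 2-fold upward, beside 9.38% of all genes. Its sum was 634 RPKM in the normal and 841 RPKM in the tumor library, a ratio of 1.33. Uqcrfs1, the Rieske iron-sulfur protein that takes electrons from ubiquinol (chromosome 13, 30540312 to 30545316), was at 24.8 RPKM (174 reads) and 52.9 RPKM (374 reads), 2.13-fold higher in the tumor library (1.77 to 2.56). It lay within 2-fold under upper-quartile scaling, when RPKM was scaled to the sum without Sftpc and with a pseudocount of 5, where its log2 difference was 0.973, 0.996 and 0.956. Cyc1, the cytochrome c1 of the same complex, does not carry the Uqcr name and was measured as an outside gene. It stood at 33.0 RPKM (210 reads) and 69.3 RPKM (446 reads), 2.10-fold higher (1.78 to 2.49). These 2 genes encode the electron-carrying subunits of complex III that are made in the nucleus.

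Around them, the core protein Uqcrc1 was at 53.7 and 84.0 RPKM (1.56; 1.39 to 1.76), while its partner core protein Uqcrc2 was at 65.1 and 64.3 RPKM (0.987; 0.885 to 1.10). The 2 core proteins thus differed in their ratios by more than counting error, with intervals that did not overlap. Among the small subunits, Uqcr10 was at 55.7 and 87.8 RPKM (1.58; 1.26 to 1.97) and Uqcrq at 34.5 and 53.8 RPKM (1.56; 1.20 to 2.04). Uqcrb, the most abundant, was at 176 and 244 RPKM (1.39; 1.23 to 1.57). Uqcrb has 3 near-identical copies elsewhere in the genome annotation, so its reads may have been split. The hinge protein Uqcrh was at 113 and 160 RPKM (1.42; 1.23 to 1.63). Uqcr11 was the only small subunit with a lower value in the tumor library, at 112 and 94.9 RPKM, with an interval of its ratio of 0.707 to 1.02.

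Complex IV had 17 genes with a sum of 1588 and 1951 RPKM and a median difference of 0.25 over the 16 measured. The gene Ndufa4 is counted here, because its protein sits in complex IV despite its name. The 11 widely expressed subunits all lay above 0, between 0.07 and 0.66, and none was past 2-fold. Cox7b, at 35.7 and 37.4 RPKM, was the lowest of them and lay below 0 under upper-quartile scaling. Cox4i1, the regulatory subunit that binds ATP, was at 243 and 265 RPKM (1.09; 0.994 to 1.20). Cox6a1 was at 210 and 267 RPKM (1.27; 1.14 to 1.42), and Cox6b1, which faces cytochrome c, at 188 and 206 RPKM (1.10; 0.970 to 1.24). These 3 were the most abundant genes of the complex, and the intervals of Cox4i1 and Cox6b1 included 1. The highest ratios among the widely expressed subunits were those of Cox5b, which binds zinc, at 118 and 187 RPKM (1.58; 1.38 to 1.80), and Cox7a2, at 41.8 and 61.3 RPKM (1.47; 1.20 to 1.80). Cox6c followed at 155 and 208 RPKM (1.34; 1.18 to 1.52). Cox7a2l, a factor that joins complexes III and IV into supercomplexes, was at 123 and 148 RPKM (1.20; 1.09 to 1.33). Cox5b and Cox7a2l each have 1 near-identical copy in the annotation.

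Among the paralogues of restricted tissue expression, Cox4i2 and Cox6b2 were lower in the tumor library and Cox6a2 was higher. Cox4i2, the lung-enriched and oxygen-responsive form of Cox4 (chromosome 2, 152753916 to 152765039), was at 10.6 RPKM (41 reads) in the normal and 4.60 RPKM (18 reads) in the tumor library, 2.30-fold lower (1.29 to 4.25). Its share of the summed Cox4i1 and Cox4i2 level was 4.17% and 1.71%. The ratio of Cox4i2 to Cox4i1, which no scaling of the libraries can move, was 2.51-fold lower in the tumor library (1.40 to 4.67). Cox6b2, known as the testis form (chromosome 7, 4751792 to 4753094), was at 17.7 RPKM (52 reads) and 8.09 RPKM (24 reads), 2.19-fold lower (1.32 to 3.71). Its share of the Cox6b level was 8.59% and 3.77%, and its ratio to Cox6b1 was 2.40-fold lower (1.43 to 4.13).

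Cox6a2, known as the heart and skeletal muscle form (chromosome 7, 128205435 to 128206366), was by contrast an abundant gene here. It was at 73.3 RPKM (265 reads) in the normal and 117 RPKM (428 reads) in the tumor library, 1.60-fold higher (1.37 to 1.87). It made up 25.9% and 30.5% of the Cox6a level, and its ratio to Cox6a1 was 1.26-fold higher in the tumor library (1.04 to 1.52). Of 11 markers of heart and skeletal muscle, 9 were at 0 RPKM in the normal and 7 in the tumor library, and their summed level was 31.9 and 10.6 RPKM, most of it Myh7 (27.7 and 6.84 RPKM). The part of muscle cells in the level of Cox6a2 was not tested. Cox6a2 lies within Itgad on the opposite strand, and Itgad has no entry in either table. Cox7a1, the muscle form of Cox7a, had 0 reads in the normal and 4 reads (1.89 RPKM) in the tumor library. It passed the 2-fold rule on those 4 reads, and the lower bound of its ratio was 0.654. Cox7b2, Cox8b and Cox8c had no entry in either table and were taken as 0.

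**Figure D3:**
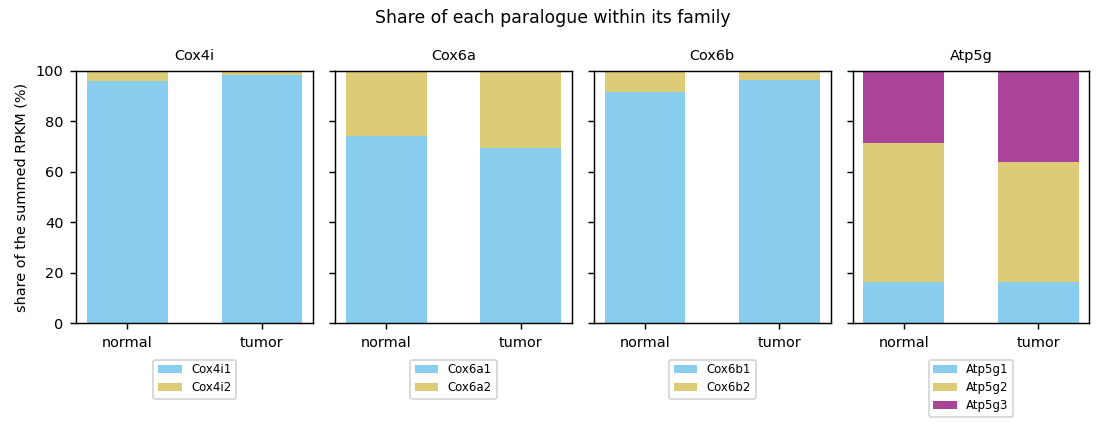
Share of each paralogue in the summed RPKM of its family (bars stack to 100%) in the normal and the tumor library, 1 library each, for Cox4i, Cox6a, Cox6b and Atp5g. Cox4i2 and Cox6b2 take smaller shares in the tumor library (1.71% and 3.77%) than in the normal one (4.17% and 8.59%), while Cox6a2 (25.9% and 30.5%) and Atp5g3 (28.8% and 36.0%) take larger ones.

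Complex V had 17 genes with a sum of 1700 RPKM in the normal and 1988 RPKM in the tumor library and a median difference of 0.28. None was past 2-fold, 12 lay above 0 (53.8% of all genes tested did) and 5 below. The 17 include 2 associated genes that are not subunits, Atp5s and Atp5sl, and both lay below 0. It had the most reads of the 5 complexes. The counting intervals placed 9 genes above a ratio of 1 (33.1% of all genes) and 4 below it (26.4%), 1 of them Atp5sl.

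The catalytic F1 head held Atp5b, the most abundant gene of the 89 in both libraries. Atp5b, the beta subunit where ATP is made, was at 278 RPKM (2783 reads) and 344 RPKM (3480 reads), a ratio of 1.24 (1.18 to 1.30). Atp5a1, the alpha subunit beside it, was at 229 and 265 RPKM, a ratio of 1.16 (1.10 to 1.22). Atp5d, the delta subunit of the central stalk, was at 151 and 186 RPKM (1.24; 1.12 to 1.36), and the gamma subunit Atp5c1 at 65.4 and 88.9 RPKM (1.36; 1.23 to 1.51). Atp5e, the epsilon subunit of the same stalk (chromosome 2, 174461075 to 174464101), went the other way. It was at 92.1 RPKM (206 reads) in the normal and 51.4 RPKM (116 reads) in the tumor library, 1.79-fold lower (1.42 to 2.27), and had the lowest difference of complex V, -0.83.

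The c ring turns with the passage of protons, and 3 genes encode the same mature c subunit with different import sequences. Together the 3 genes were at 226 and 317 RPKM, a ratio of 1.40. Atp5g3 was at 64.9 RPKM (235 reads) and 114 RPKM (417 reads), a ratio of 1.76 (1.49 to 2.07), the highest of complex V. Atp5g1 was at 37.3 and 52.3 RPKM (1.41; 1.14 to 1.73). Atp5g2, the most abundant of the 3, was at 123 and 150 RPKM (1.22; 1.07 to 1.39). Atp5g2 took 54.7% of the c ring level in the normal and 47.5% in the tumor library. The share of Atp5g1 was 16.5% in both libraries. Atp5g1 has 1 near-identical copy in the annotation and Atp5g2 has 2, so the reads behind these shares may have been split.

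The peripheral stalk, which holds the head still, was mixed. Atp5f1, its b subunit, was at 100.02 RPKM (793 reads) and 160 RPKM (1281 reads), a ratio of 1.60 (1.46 to 1.75). Atp5j, coupling factor 6, was at 94.1 and 75.7 RPKM, 1.24-fold lower (1.07 to 1.44), and it overlaps the opposite-strand gene Gabpa. Atp5h and Atp5o, the d subunit and the oligomycin sensitivity protein, had intervals that included 1. Of the small membrane subunits, Atp5l was at 71.2 and 98.3 RPKM (1.38; 1.15 to 1.66), Atp5k at 20.01 and 28.2 RPKM (0.912 to 2.19), and Atp5j2 at 125 and 105 RPKM, 1.19-fold lower (1.01 to 1.40). Atp5l has 4 near-identical copies in the annotation, and Atp5f1 has 1. The 2 associated genes that carry an Atp5 name are not subunits. Atp5sl, now called Dmac2, was at 10.1 and 5.67 RPKM, 1.78-fold lower (1.33 to 2.41), and Atp5s at 3.16 and 2.88 RPKM (0.494 to 1.67).

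**Figure D4:**
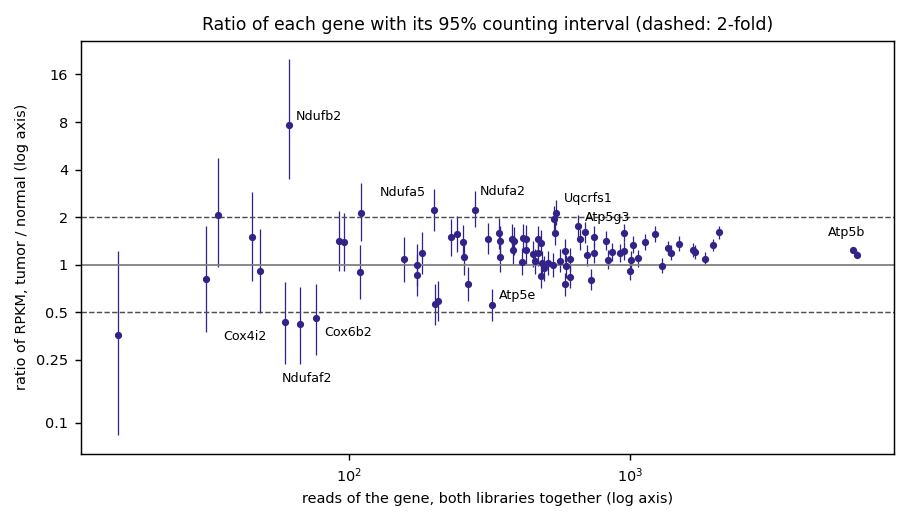
Ratio of RPKM, tumor over normal, for each gene read in both libraries (log axis), against its reads in both libraries together (log axis); vertical lines are exact 95% counting intervals and dashed lines mark 2-fold. Ndufb2 (ratio 7.64) is the only gene whose whole interval lies past a dashed line, and the intervals narrow toward Atp5b on the right (1.18 to 1.30).

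The 7 complex I assembly factors among the 89 genes were low in level and lay on both sides of 0. These proteins help to build complex I and are not part of it once it is finished. Their median difference was -0.15, with 3 of 7 above 0, and their sum was 42.4 RPKM in the normal and 33.9 RPKM in the tumor library. Ndufaf2, a late assembly factor (chromosome 13, 108052589 to 108158652), was at 12.7 RPKM (47 reads) and 5.33 RPKM (20 reads), 2.37-fold lower (1.38 to 4.23). Ndufaf2 overlaps the gene Smim15 on the opposite strand. Ndufaf7, an arginine methyltransferase of the matrix, was at 10.6 and 6.21 RPKM, 1.70-fold lower (1.28 to 2.29). Ndufaf4 was at 1.81 RPKM (35 reads) and 3.83 RPKM (75 reads), a ratio of 2.12 (1.40 to 3.27), but within 2-fold on the log2(RPKM + 1) scale. Ndufaf3 was at 12.9 and 13.9 RPKM (0.782 to 1.501). Ndufaf1, Ndufaf5 and Ndufaf6 were all under 3 RPKM, with intervals that included 1.

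A wider list of 43 assembly factors with other names, for all 5 complexes, gave a similar spread around 0. Of the 39 measured, 16 lay above 0 and 23 below, with a median of -0.06, and 3 were past 2-fold upward (9.38% of all genes) and 4 downward (6.53%). These shares lie near those of all genes. Cox20, which helps the copper-bearing Cox2 protein into complex IV, was at 32.6 RPKM (78 reads) in the normal and 5.801 RPKM (14 reads) in the tumor library, 5.63-fold lower (3.16 to 10.8). Cmc1, which acts on Cox1 in the same complex, was at 2.998 RPKM (19 reads) and 14.8 RPKM (95 reads), 4.95-fold higher (3.004 to 8.59). Tmem126b, a complex I factor, was at 7.37 and 2.09 RPKM, 3.53-fold lower (1.71 to 8.00). Taco1, an activator of Cox1 translation, was at 9.71 and 3.30 RPKM, 2.94-fold lower (1.83 to 4.90). The other calls, singled out once their values were known, were the complex III factor Lyrm7 (4.50-fold lower; 2.44 to 8.96), Atpaf1 of complex V (2.33-fold higher; 1.67 to 3.30) and Coa4 (3.09-fold higher; 1.35 to 7.94). Factors of the same complex thus lay on both sides, as Cox20 and Cmc1 did for complex IV.

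Genes that regulate mitochondrial biogenesis, or copy and transcribe mitochondrial DNA, lay mostly below 0. Of 15, 3 lay above 0 (53.8% of all genes did) and 12 below, and the median difference was -0.60. The size of this median depended on the setting. It was -0.29 with a pseudocount of 5. Over the 9 genes that passed a 5 RPKM filter it was -0.17, with 2 above 0 and 7 below. The counting interval lay wholly below 1 for 9 (26.4% of all genes) and wholly above 1 for 2 (33.1%). Past 2-fold were 1 of the 15 upward, beside 9.38% of all genes, and 2 downward, Ppargc1b and Tfb2m, beside 6.53%. The 1 upward was Ppargc1a, the coactivator PGC-1alpha. It was at 2.14 RPKM (74 reads) in the normal and 6.94 RPKM (243 reads) in the tumor library, a ratio of 3.25 (2.50 to 4.28). Ppargc1b, a relative of Ppargc1a singled out once its values were known, was at 2.05 RPKM (40 reads) and 0.102 RPKM (2 reads), 20.2-fold lower (5.24 to 172). Pprc1, of the same coactivator family, was also singled out once its values were known. It was at 4.72 RPKM (132 reads) and 1.95 RPKM (55 reads), 2.42-fold lower (1.76 to 3.38), but within 2-fold on the log2(RPKM + 1) scale. Of the 3 coactivators of this family, Ppargc1a was thus higher and the other two were lower. Tfb2m, a factor that starts mitochondrial transcription, was at 11.8 and 5.38 RPKM, 2.19-fold lower (1.64 to 2.94). Polg, the mitochondrial DNA polymerase, was at 19.9 and 10.9 RPKM, 1.83-fold lower (1.57 to 2.13). Gabpb1, a subunit of the ETS factor GABP, was at 16.1 and 9.58 RPKM, 1.68-fold lower (1.38 to 2.04). Nrf1 was at 9.88 and 9.06 RPKM (0.742 to 1.13), and Tfam, which packages mitochondrial DNA, at 3.06 and 3.13 RPKM (0.713 to 1.46).

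**Figure D5:**
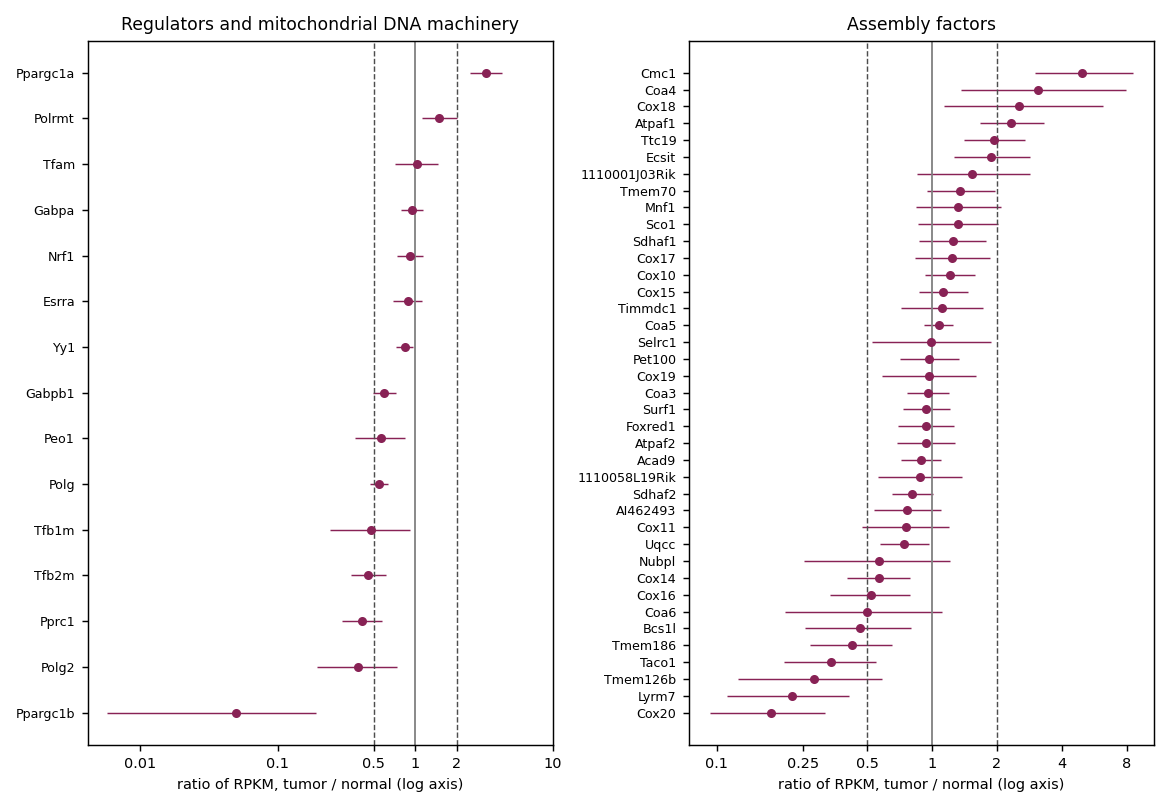
Ratio of RPKM, tumor over normal, with its exact 95% counting interval, on a log axis, for regulators and mitochondrial DNA machinery (left) and for assembly factors with names outside the symbol rule (right), for genes read in both libraries. Among the regulators Ppargc1a (3.25) stands at the top and Ppargc1b (0.0495) at the bottom; the assembly factors spread from Cox20 (0.178) to Cmc1 (4.95).

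The promoters of the subunits were searched for the letters bound by NRF1, a factor known for acting on nuclear respiratory chain genes, because many of these genes had higher values together. The motif was GCGCA, then any base, then GCGC, read on both strands, in the 250 bases before each gene's start in RefSeq's table for GRCm38.p6. A promoter was given for 74 of the 89 genes, and 14 of them (18.9%) held the motif. A gene with several given starts counted as holding the motif if any of its windows did. Of the promoters of all 27025 genes, 4.23% held it. Of those of 11893 genes listed here for either library, at any level, 8.37% did. None of the complex III genes with a promoter in the table (Uqcr10, Uqcr11, Uqcrc1, Uqcrfs1 and Uqcrh) held these letters in this window. The sequences below show 1 match for genes of complexes I, II, IV and V, 5′ to 3′ on the gene's own strand, with the match in capitals. They are chosen to show the match in a gene past 2-fold, Ndufa5, and in others of the 4 complexes that lay within 2-fold.
Ndufa5 (chr6:24527691-24527741, minus strand): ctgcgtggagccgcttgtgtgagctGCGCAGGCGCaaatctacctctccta
Ndufb4 (chr16:37654525-37654584, minus strand): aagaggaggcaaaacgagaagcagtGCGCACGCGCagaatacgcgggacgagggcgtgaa
Sdha (chr13:74350304-74350363, minus strand): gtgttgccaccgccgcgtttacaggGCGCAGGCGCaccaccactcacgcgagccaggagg
Sdhd (chr9:50603894-50603953, minus strand): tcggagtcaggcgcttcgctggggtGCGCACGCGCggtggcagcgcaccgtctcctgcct
Cox6a1 (chr5:115349086-115349145, minus strand): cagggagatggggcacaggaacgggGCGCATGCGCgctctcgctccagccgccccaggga
Atp5g2 (chr15:102671055-102671114, minus strand): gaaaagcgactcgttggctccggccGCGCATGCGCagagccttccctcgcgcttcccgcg

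In Ndufa5 (ratio 2.20 above) the match began 26 bases before 1 given start and 190 bases before another. It began 98 bases before the given start in Sdha (1.34) and 79 bases before it in Sdhd (1.03). All 13 measured subunits with the motif lay above 0, with a median difference of 0.41. Of the 55 without it, 39 lay above 0, with a median of 0.27. Sdhd and Ndufs6, both with the motif, lay below 0 under each of the 4 other scalings. The letters ACCGGAAG, of the ETS type bound by GABP, were in 5.41% of the members' windows and in 3.53% of those of the genes listed here. The 3 measured subunits with these letters had a median difference of 0.04, with 2 above 0. The letters AAGATGGC, of the YY1 type, were in 2.70% and 2.23%, on either strand. The 2 genes with them, the subunit Atp5j and the associated gene Atp5sl, had a median of -0.52, with 0 above 0. A match describes these letters only, and no binding was measured in these samples.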

How the data were processed

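The authors deposited 1 table per library with each gene's identifier, symbol, description and RPKM, per the file headers. Trimmomatic and the mm10 build were used, per the submitters' processing notes. The aligner, counter, annotation and strand setting were not given in the sources used here. Because RPKM depends on the composition of the library, the share of Sftpc matters: it took 18.6% of the summed RPKM in the normal and 11.2% in the tumor library.

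From these values were computed direct ratios, log2((tumor RPKM + 1)/(normal RPKM + 1)) for genes that reached 1 RPKM in either library, and calls at 2-fold on that scale, which understates the ratio of low genes. Whole reads were worked back from the RPKM steps for 15080 of 15113 genes (99.8%), and the library totals are estimates of this work. By rule, the length implied for a gene had to be whole within 0.004 bases. That length equalled a GENCODE M21 transcript length of the same symbol for 12.0% of the genes with an implied length. Ratios of reads were given exact (Clopper-Pearson) conditional binomial 95% intervals. PCR reads without molecular identifiers are not independent molecules. The steps were tested on simulated data. Gene positions and promoters came from RefSeq (GRCm38.p6), overlaps and copies from GENCODE M21. A copy was a stretch elsewhere in the annotation at 97% identity or more over at least 100 coding bases (BLAST+ 2.17.0), and 17 of the 89 genes had one. The median difference was 0.44 for these 17, with 14 above 0. It was 0.26 for the 64 measured subunit genes without a copy, with 49 above 0. Python 3.11.15, numpy 2.4.6, pandas 2.3.3, scipy 1.17.1 and matplotlib 3.10.9 were used.

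The members and gene lists were chosen with earlier results of these data known. Named were, per complex, the 4 highest and 4 lowest differences at 5 RPKM or more, the 3 most abundant genes, restricted paralogues and all calls, and per outside list the 4 largest differences. Of the markers, the summed RPKM (normal, tumor) was 32310 and 36431 for club, 512 and 390 for ciliated, 1.74 and 12.0 for smooth muscle and pericyte, 3.38 and 15.1 for adipocyte, 15.0 and 46.7 for macrophage, 2.58 and 1.34 for pan-leukocyte, 16.2 and 25.5 for erythroid and 75.5 and 68.8 for cycling cells. Most of the club sum was Scgb1a1 (30142 and 35116 RPKM), and of the 5 club markers 2 lay above 0 and 3 below. Ptprc, which encodes CD45, had 12 and 2 reads. The values of 1 member are not reported here, though it is in the counts and sums. Alternatives were other scalings, pseudocounts, filters, thresholds and groupings.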

Additional observations from a re-analysis of the deposited data

How the results depend on the processing

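With 1 library per group no replicate could be left out. No paired analysis was possible because each group has 1 library. The median difference of each of the 5 complexes stayed above 0 under each alternative run. Over 4 scalings and the other settings the subunit median was 0.19 to 0.28 and that of all genes -0.02 to 0.08, and the subunit median was higher by 0.21 to 0.23 in each. Of 81 subunits, 58 to 63 were above 0. The count past 2-fold was 8 of the 89 genes and 1955 of all genes. It moved to 2 and 560 with a pseudocount of 5, to 23 and 4361 at 1.5-fold, and to 1 and 279 at 4-fold. With a 5 RPKM filter all genes gave 1106, and without the restricted paralogues the members gave 5. With the rule that the counting interval lie wholly past 2-fold, chosen after seeing the data, the counts were 1 and 1226. Ndufb2 and Ndufa2 stayed past 2-fold under 9 of 9 scalings, pseudocounts and filters, and Uqcrfs1 under 6. For Ndufb2, Cox4i2 and Cox6b2, with under 100 reads in both libraries, the upper bound of the interval is over 2 times the lower.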

Other observations

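A further list held mitochondrial proteins outside the chain. Of 13 carriers, pores, import proteins and matrix markers, 11 were higher in the tumor library (53.8% of all genes tested were), none by 2-fold. Their median log2 difference was 0.24, where that of all genes was 0.06. A counting interval wholly above 1 was found for 8 of them (33.1% of all genes). Tomm20, a receptor of the outer membrane import pore, was at 10.5 and 17.1 RPKM (ratio 1.63; 1.40 to 1.89). Tomm40, the pore itself, was at 10.6 and 17.0 RPKM (1.61; 1.24 to 2.11). The inner membrane scaffold protein Phb2 was at 50.3 and 70.4 RPKM (1.40; 1.22 to 1.61), while its partner Phb was at 29.6 and 28.7 RPKM (0.820 to 1.15). Vdac2, a channel of the outer membrane, was at 65.5 and 86.6 RPKM (1.32; 1.18 to 1.47). Citrate synthase (Cs), often used as a measure of mitochondrial content, was at 57.0 and 54.5 RPKM (0.868 to 1.05), so its interval included 1.

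Beyond Cyc1, a few genes tied to the chain carry other names. Cycs, the cytochrome c that shuttles between complexes III and IV, was at 15.5 and 24.8 RPKM (1.60; 1.36 to 1.88). Usmg5, a small subunit of the ATP synthase, was at 81.1 and 106 RPKM (1.31; 1.06 to 1.61). Atpif1, the inhibitor that binds the F1 head, was at 141 and 140 RPKM (0.865 to 1.14). The 13 protein genes of mitochondrial DNA were found under none of their symbols in the tables, so the mitochondrially encoded subunits of complexes I, III, IV and V were not analysed here.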
